A study of Mus musculus with 2 samples.

Results

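The 9 transcription factors described here, Spi1, Cebpa, Cebpb, Irf8, Irf4, Zeb2, Maf, Nr1h3 and Gata6, were chosen by name as regulators of myeloid lineages, and all 9 were among the 27809 genes measured. They were followed by experimental group and by cell class in 1 pooled single-cell library of CD45+ cells from mouse hearts, prepared with TAS-Seq on BD Rhapsody beads, in which each cell carried a hashtag, an antibody-borne barcode that names its group. Male mice on a C57BL/6 background, aged 8 weeks, had sham surgery or transverse aortic constriction (TAC), which narrows the aorta and overloads the left ventricle with pressure, and hearts were taken 1 week later. The 5 groups were WT sham, CD3e-/- sham, WT TAC, CD3e-/- TAC and WT TAC with a CD8 antibody given to remove CD8+ T cells, named CD8-depleted TAC below. The CD3e-/- groups lack the CD3 epsilon chain in every tissue, so they lack mature T cells. Each group is 1 sample with 1 hashtag, and no separate animals can be told apart within it. No test between groups is therefore possible, and every interval below is an exact 95% interval that covers counting error only.

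Spi1 encodes PU.1, the factor on which all myeloid cells depend, and Cebpa and Cebpb encode CCAAT/enhancer-binding proteins that act in monocyte production and in inflammatory or patrolling monocytes. Irf8 and Irf4 are related interferon regulatory factors that bind DNA together with PU.1 and are known for opposite branches of the dendritic cell lineage: Irf8 is needed for type 1 conventional dendritic cells and monocytes, and Irf4 marks type 2 dendritic cells and activated B and plasma cells. Zeb2 is a zinc finger repressor that keeps macrophage identity, Maf is a basic leucine zipper factor of resident tissue macrophages, Nr1h3 encodes the oxysterol receptor LXR alpha, and Gata6 is the zinc finger factor of large cavity macrophages of the peritoneum, pleura and pericardium.

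Of the 9 genes, 8 were placed in GRCm38.p6 with the RefSeq annotation, from first to last base of the gene. Zeb2, Spi1, Nr1h3 and Cebpb lie on chromosome 2, at 44983512 to 45117442, 91082374 to 91115759, 91184061 to 91202829 and 167688915 to 167690432. Cebpa lies on chromosome 7 at 35119293 to 35121928, Maf and Irf8 lie on chromosome 8 at 115703253 to 115706894 and 120736358 to 120756694, and Irf4 lies on chromosome 13 at 30749233 to 30766981. The 250 bases before the annotated start are shown for Irf8 and Irf4, whose levels ran opposite ways in the dendritic classes, and for Cebpb, the member that differed most between the TAC groups among those with over 20 reads in 1000000. Promoters came from RefSeq for 6 of the 9 members, with none for Spi1, Maf and Gata6, and the listed start that comes first was used for Irf8. All 3 lie on the plus strand, and capitals mark matches on either strand to any of 5 motifs. Signal transducers of the STAT family bind sites of the letters TTCNNNGAA. The letters GAAANNGA hold a pair of half-sites for interferon regulatory factors. PU.1 binds sites with GAGGAA in them. Factors that respond to cyclic AMP recognise the half-site TGACG. The TATA box, where transcription machinery is placed near the start, was searched as TATAAA.
Irf8, chr8:120736108-120736357: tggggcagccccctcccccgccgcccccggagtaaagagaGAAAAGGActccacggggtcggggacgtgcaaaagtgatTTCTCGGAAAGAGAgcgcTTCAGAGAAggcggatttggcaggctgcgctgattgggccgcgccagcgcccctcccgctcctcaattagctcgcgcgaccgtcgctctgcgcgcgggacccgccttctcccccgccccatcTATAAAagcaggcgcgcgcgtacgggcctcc
Irf4, chr13:30748983-30749232: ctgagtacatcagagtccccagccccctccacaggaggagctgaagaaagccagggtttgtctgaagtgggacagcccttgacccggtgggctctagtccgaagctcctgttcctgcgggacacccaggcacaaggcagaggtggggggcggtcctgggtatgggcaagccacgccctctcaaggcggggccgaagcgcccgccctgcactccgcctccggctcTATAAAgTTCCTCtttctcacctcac
Cebpb, chr2:167688665-167688914: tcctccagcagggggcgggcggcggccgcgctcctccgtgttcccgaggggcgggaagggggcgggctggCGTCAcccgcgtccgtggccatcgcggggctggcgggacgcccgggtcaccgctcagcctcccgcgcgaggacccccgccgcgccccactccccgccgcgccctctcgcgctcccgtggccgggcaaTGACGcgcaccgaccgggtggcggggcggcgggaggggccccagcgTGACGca
The Irf8 window held 2 TTCNNNGAA matches, from 171 to 163 and from 153 to 145 bases before the start, which 7.02% of all 32841 listed windows of the same length also hold at least once. It also held 2 GAAANNGA matches (18.1% of windows), of which the second overlaps the first TTCNNNGAA match. The Irf4 window held 1 GAGGAA match on the minus strand (23.3% of windows), and both Irf windows held TATAAA (12.4%). The Cebpb window held 3 TGACG matches (17.8%).

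The matrix held 5363 cell barcodes, of which 5263 had a hashtag, at least 500 genes and at most 0.4 of their reads on mitochondrial genes. Total reads ran from 91899648 (CD3e-/- sham) to 208758627 (WT TAC) per group, and median reads per cell from 75442 (WT sham) to 117788 (CD3e-/- TAC), so the TAC groups were read more deeply. Levels are therefore given as summed reads per 1000000 reads (CPM) of a group or class, and shares of cells with a read after each cell was thinned to 39057 reads. T or NK cells carried Cd3e reads in 33 of 60 cells in WT sham and 32 of 43 in WT TAC, against 1 of 9 and 2 of 12 in the CD3e-/- groups. Cd8a or Cd8b1 reads were found in T or NK cells making up 0.557% of the cells kept in WT TAC (interval 0.255 to 1.06) and 0.447% in CD8-depleted TAC (0.122 to 1.14), so a loss of CD8+ cells could not be seen at this number of cells.

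Cells were sorted by the CPM of gate genes in each cell. The monocyte and macrophage gate asked for Csf1r at 200 CPM or more and Lyz2 at 1000 or more, with no lymphocyte or dendritic gate passed, and took 3433 cells. It was divided, in this order, into Saa3-high (32 cells), Lyve1-high (193), Ace-high (250), Ly6c2-high (334), Ccr2-high (1277) and the remaining Ccr2-low Lyve1-low cells (1347); 463 cells passed 2 or more of these gates. Xcr1-high (154 cells) and Cd209a-high (326) are the dendritic gates, and B (464) and T or NK (156) the lymphocyte gates; 675 cells passed none. The markers listed for Ace-high, Saa3-high, Xcr1-high, B and T or NK were all at their highest in the class of that name, as were 5 of 6 for Lyve1-high. Only 2 of 6 were for Ly6c2-high, 1 of 6 for Cd209a-high, 1 of 5 for Ccr2-low Lyve1-low and 0 of 5 for Ccr2-high, so these 4 classes are called by their gates and not by a cell type. A class level in a group is used only with 20 cells or more, which left 40 class-by-group sums.

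Spi1 was read in nearly every gated monocyte and macrophage. Its level was 476 CPM in WT sham, 513 in CD3e-/- sham, 560.4 in WT TAC, 628 in CD3e-/- TAC and 584 in CD8-depleted TAC, and after thinning 90.8%, 92.6%, 95.3%, 97.6% and 96.6% of the cells had a Spi1 read. Both measures were higher in all 3 TAC groups than in both sham groups. The log2 ratio of TAC to sham, with 10 CPM added to each level, was 0.23 in WT and 0.29 in CD3e-/-. By class the level was highest in the 2 monocyte gates, Ace-high (mean over groups 749 CPM, from 675 to 827) and Ly6c2-high (708, from 629 to 751), whose ranges overlapped and lay above the Ccr2-high range of 439 to 599. The Ccr2-high, Cd209a-high, Ccr2-low Lyve1-low and Lyve1-high means lay between 495 and 521 CPM with overlapping ranges, and Xcr1-high averaged 366. B cells averaged 176 CPM and T or NK cells 143, the lowest of all classes.

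Cebpa was nearly even between groups. It measured 102 CPM in WT sham, 115 in CD3e-/- sham, 114 in WT TAC, 116 in CD3e-/- TAC and 98.8 in CD8-depleted TAC. Its ratios lay between -0.19 and 0.15 on the log2 scale in the 5 comparisons, and between -0.16 and 0.20 with the class mix held fixed. The level was highest in Ccr2-low Lyve1-low cells (mean 129.6 CPM, from 107 to 149) and, in its only group, Saa3-high cells (142), and was 22.6 CPM in T or NK and 7.23 in B cells. In the Ace-high class Cebpa was 26.6 CPM in WT sham and 38.2 in CD3e-/- sham against 79.9, 82.9 and 81.7 in the TAC groups. The thinned shares there, 47.8% and 33.3% against 61.1%, 47.9% and 40.9%, overlapped, and in the sham groups 1 cell held 32.5% and 40.9% of the Cebpa reads.

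Cebpb was higher in the TAC groups and highest in CD3e-/- TAC. It stood at 68.0 CPM in WT sham, 81.6 in CD3e-/- sham, 91.2 in WT TAC, 127 in CD3e-/- TAC and 92.7 in CD8-depleted TAC. The thinned shares of cells with a read were 46.4% (41.9 to 51.0), 52.2% (47.2 to 57.2), 59.8% (56.7 to 62.9), 70.5% (66.7 to 74.0) and 59.6% (55.4 to 63.6), so the CD3e-/- TAC interval lay above the other four. The log2 ratio of CD3e-/- TAC to WT TAC was 0.43, larger in size than that of 96.5% of the genes compared, which are those with 20 CPM or more in either group. It was 0.36 over the 4 classes with enough cells in both groups and 0.15 with the mix of these classes held fixed. By class the ratio was 0.44 in Ccr2-high, 0.45 in Ccr2-low Lyve1-low and 0.03 in Ace-high cells, and -0.61 in Ly6c2-high cells, where Cebpb was 117 CPM in CD3e-/- TAC and 183 in WT TAC. Ly6c2-high cells made up 16.8% (14.1 to 19.9) of the gated monocytes and macrophages in CD3e-/- TAC and 7.66% (6.16 to 9.38) in WT TAC, and Ace-high cells 11.1% (8.83 to 13.7) and 6.58% (5.19 to 8.20). Cebpb was highest in the Ace-high class (mean 237 CPM, from 187 to 267), followed by Saa3-high (189.7 in CD3e-/- TAC) and Ly6c2-high (147, from 117 to 183), and the latter range lay above all other classes. The Ccr2-high mean was 77.7 CPM, Ccr2-low Lyve1-low 62.7, Lyve1-high 35.4 and Cd209a-high 34.3, each overlapping the next, and Xcr1-high cells had 12.2.

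**Figure D1:**
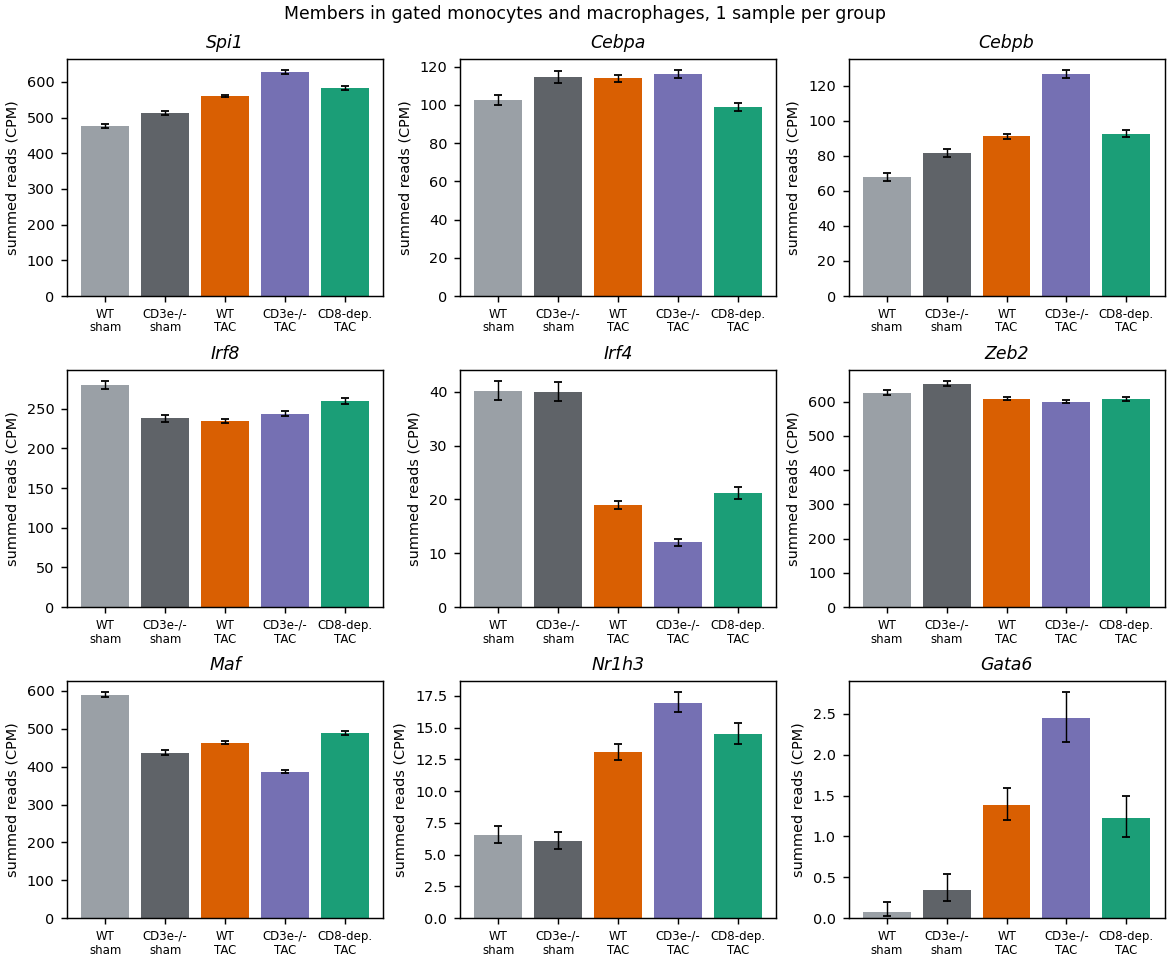
Level in CPM of each member in the gated monocytes and macrophages of the 5 groups, 1 bar per group, with exact 95% Poisson intervals that cover counting error only. Irf4 stands at about 40 CPM in both sham groups and at 12.0 to 21.2 in the 3 TAC groups, Nr1h3 shows the opposite order at low levels, and Cebpa and Zeb2 are nearly even.

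**Figure D2:**
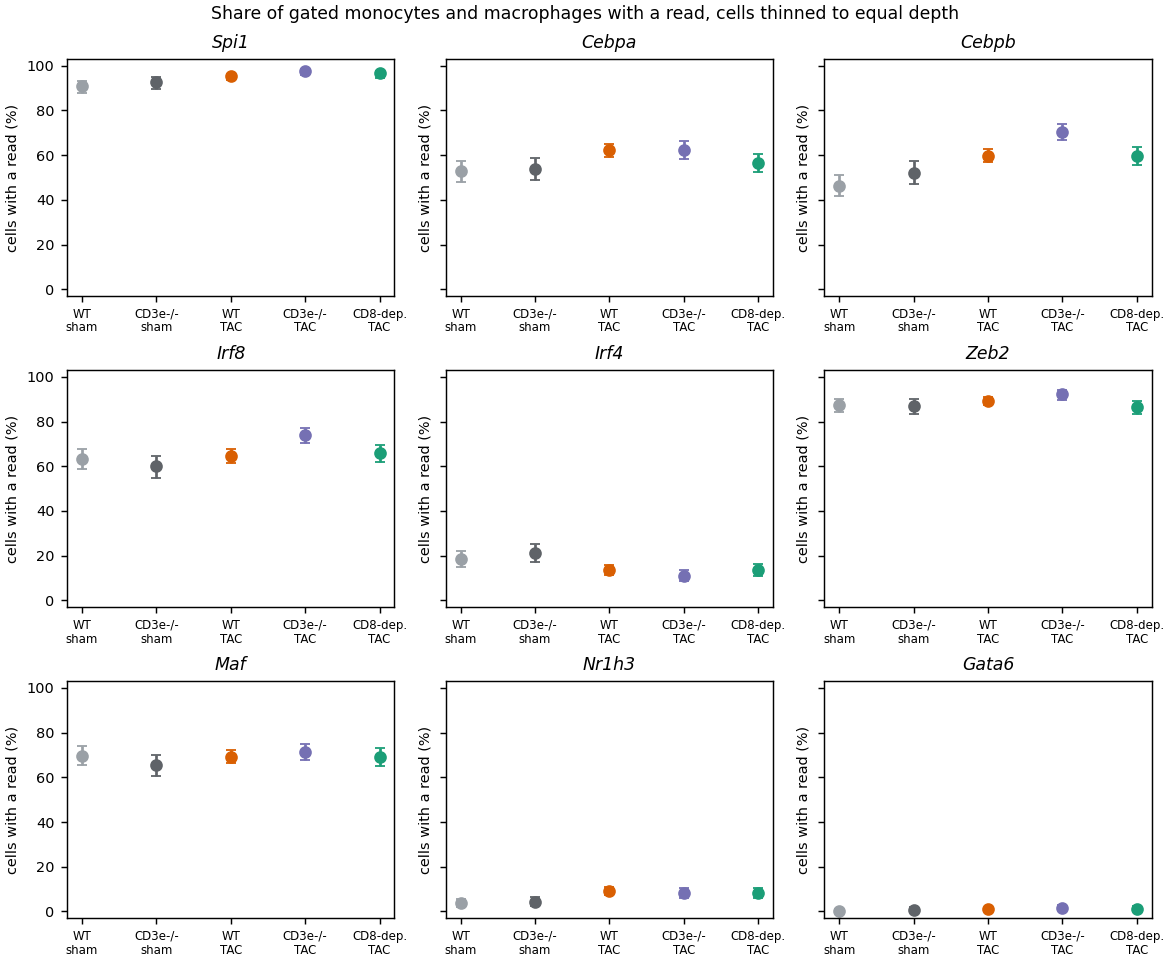
Percentage of gated monocytes and macrophages with at least 1 read of each member, with every cell thinned to 39057 reads and shallower cells left out; points are groups and bars exact 95% binomial intervals. Spi1 and Cebpb shares are higher in the TAC groups than in both sham groups, and the Irf4 share is lower.

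Irf8 set the Xcr1-high cells apart. In that class it reached 2589.6 CPM in WT sham, 2231 in CD3e-/- sham, 2962 in WT TAC and 2430 in CD8-depleted TAC, and 153 of 154 cells had a read. In Cd209a-high cells the same groups had 24.8, 26.1, 104 and 83.0 CPM. The log2 ratio of Xcr1-high to Cd209a-high lay between 4.70 and 6.22 over the 4 groups with 20 cells of both. B cells came next (mean 459 CPM, from 344 to 581), and the monocyte and macrophage classes followed at means of 202 to 285 CPM with overlapping ranges, apart from Saa3-high at 166. In the pooled monocytes and macrophages Irf8 was 279.9 CPM in WT sham, 238 in CD3e-/- sham, 234 in WT TAC, 244 in CD3e-/- TAC and 259.6 in CD8-depleted TAC, a narrow range in which WT sham was highest.

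Within the Cd209a-high class Irf8 was higher in the TAC groups. The level was 24.8 CPM in WT sham and 26.1 in CD3e-/- sham against 104, 123 and 83.0 in WT TAC, CD3e-/- TAC and CD8-depleted TAC. The thinned share of Cd209a-high cells with an Irf8 read was 11.3% (4.99 to 21.0) and 17.4% (9.32 to 28.4) in the sham groups. It was 26.5% (18.2 to 36.1) in WT TAC, 46.7% (28.3 to 65.7) in CD3e-/- TAC and 37.5% (22.7 to 54.2) in CD8-depleted TAC. All 3 TAC groups were above both sham groups, though the intervals of WT TAC and CD3e-/- sham overlapped, and in WT TAC 1 cell gave 47.9% of the Irf8 reads. The log2 ratio of TAC to sham in this class was 1.72 in WT and 1.88 in CD3e-/-. Maf, a macrophage factor, measured 1.47 CPM in WT sham, 13.3 in CD3e-/- sham, 44.2 in WT TAC, 22.4 in CD3e-/- TAC and 9.85 in CD8-depleted TAC in the same cells, with log2 ratios of TAC to sham of 2.24 in WT and 0.47 in CD3e-/-. Only 1 of the 6 markers listed for the class was highest there, and the part of other cells in the Irf8 difference was not tested.

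Irf4 gave the opposite picture in the dendritic classes. In Cd209a-high cells it measured 101 CPM in WT sham, 99.7 in CD3e-/- sham, 55.9 in WT TAC, 13.3 in CD3e-/- TAC and 59.5 in CD8-depleted TAC, and in Xcr1-high cells at most 10.02. The log2 ratio of Xcr1-high to Cd209a-high was -3.06 to -2.47 over 4 groups. Of these classes Irf4 was at 20 CPM or more only in the Cd209a-high cells, so its direction was set by that limit. Zeb2 went the same way, at 14.2 to 49.3 CPM in Xcr1-high and 337 to 453 in Cd209a-high cells, with ratios of -4.26 to -2.55. These 3 members, Irf8, Irf4 and Zeb2, were past 2-fold in the same direction in every group, as were 3.82% of the 8576 genes compared, and the other 6 were not. Of those 6, Nr1h3 and Gata6 were under 20 CPM in both classes and not compared. The gates used other genes. Irf4 was highest in B cells (mean 203 CPM, from 108 to 290), and the 2 monocyte gates, Ly6c2-high and Ace-high, had means of 8.27 and 7.49.

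In the gated monocytes and macrophages Irf4 was lower after TAC. It stood at 40.2 CPM in WT sham and 40.0 in CD3e-/- sham, and at 19.0 in WT TAC, 12.0 in CD3e-/- TAC and 21.2 in CD8-depleted TAC. The 2 sham groups were alike and the 3 TAC groups all lower. The thinned share of cells with an Irf4 read was 18.5% (15.1 to 22.3) and 21.0% (17.2 to 25.3) in the sham groups against 13.5% (11.5 to 15.8), 10.9% (8.58 to 13.6) and 13.4% (10.8 to 16.5), and no single cell held more than 10.2% of the reads in any group. The same share was 5.26% in Xcr1-high cells, a class that should lack the gene, and 12.1% in T or NK cells, close to the TAC shares. Irf4 was the only member past 2-fold in any comparison of groups. Its log2 ratio was -1.18 for CD3e-/- TAC against CD3e-/- sham, where 2.92% of the 6959 genes compared passed, and -0.79 for WT TAC against WT sham, where 1.99% of 7041 passed. In both it reached 20 CPM only in the sham group, so its direction in these comparisons was set by that limit. The WT ratio was -1.04, past 2-fold, with 1 CPM added in place of 10. With the class mix held fixed the ratios were -1.14 in CD3e-/- and -0.88 in WT.

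The lower Irf4 level was seen in several classes taken alone. In Ccr2-low Lyve1-low cells the groups, in the order used above, had 37.0, 33.0, 11.3, 7.76 and 24.8 CPM, and the log2 ratio of TAC to sham was -1.14 in WT and -1.28 in CD3e-/-. In Ccr2-high cells they had 57.6, 54.4, 26.9, 17.5 and 24.0 CPM, with ratios of -0.87 and -1.23. In Cd209a-high cells the ratios were -0.75 and -2.23. B cells, which lie outside the myeloid gate, showed 290 and 268 CPM in the sham groups against 108, 151 and 196 in the TAC groups, with ratios of -1.34 and -0.79. The order was reversed in Ace-high cells, at 0.35 and 5.29 CPM in the sham and 6.84, 9.99 and 15.0 in the TAC groups. In Lyve1-high cells it held, at 30.5 and 46.4 in sham against 24.3 and 27.1 in WT and CD8-depleted TAC. There WT sham lay close to the TAC values. Egr1, an immediate early gene that responds within minutes to stimulation and to tissue digestion, moved with Irf4: it measured 2531 and 2305 CPM in the sham and 775, 568 and 790 in the TAC monocytes and macrophages, and Fos 4627 and 4164 against 2648, 2363 and 2638. Their part in the Irf4 difference was not tested. The 4 B cell markers summed to 28.2, 21.0, 20.1, 15.7 and 20.4 CPM in the same cells.

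**Figure D3:**
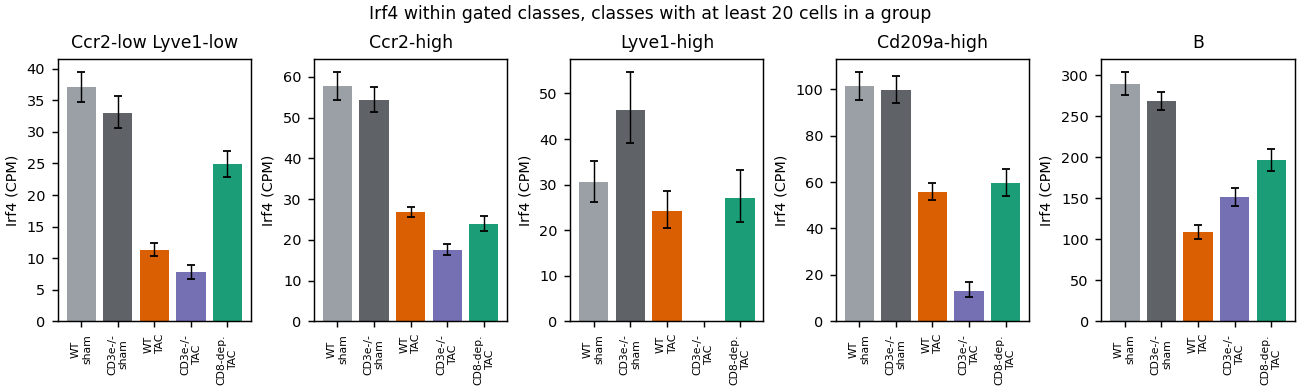
Irf4 level in 5 gated classes by group, in CPM with exact 95% Poisson intervals; the vertical axes differ, and no bar is drawn for Lyve1-high cells of CD3e-/- TAC, which were under 20. Both sham groups stand above every TAC group drawn in all 5 panels. In the Lyve1-high panel WT sham (30.5 CPM) is close to the TAC values of 24.3 and 27.1.

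Zeb2 was the most even member. Its level was 626 CPM in WT sham, 652 in CD3e-/- sham, 609 in WT TAC, 599 in CD3e-/- TAC and 608 in CD8-depleted TAC, and no ratio between groups exceeded 0.12 in size on the log2 scale. Lyve1-high, Ccr2-high, Ly6c2-high and Ace-high cells averaged 647 to 672 CPM with overlapping ranges, Ccr2-low Lyve1-low 535 and Saa3-high 439 in its only group. Below them lay Cd209a-high (397), B (97.4), T or NK (96.0) and Xcr1-high cells (32.0).

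Maf separated the macrophage classes from each other. Lyve1-high cells had the highest level, 1377 CPM in WT sham, 1066 in CD3e-/- sham, 1163 in WT TAC and 1294 in CD8-depleted TAC. Ccr2-low Lyve1-low cells followed with a mean of 648 CPM (557 to 719), then Ly6c2-high (322, from 248 to 441) and Ccr2-high (321, from 240.2 to 408), whose ranges overlapped, then Saa3-high (208) and Ace-high (153, from 109 to 197). In the dendritic classes it averaged 18.2 (Cd209a-high) and 11.8 CPM (Xcr1-high). Against Ly6c2-high cells the Lyve1-high log2 ratio was 2.02 to 2.34 in the 2 groups with enough cells of both, WT TAC and CD8-depleted TAC, while Cebpb had -1.59 to -1.56. These 2 members passed 2-fold in both groups, as did 12.3% of the 8311 genes compared, and the count was 3 under 5 of the 7 alternatives run. In Ccr2-high against Ccr2-low Lyve1-low cells, Maf was lower in all 5 groups with ratios of -1.54 to -0.74. Still, 0 of the members compared passed 2-fold in every group, against 0.691% of 8101 genes. Gata6 was under 20 CPM in both classes and not compared. Between the 2 monocyte gates, Ly6c2-high and Ace-high, Maf was higher in Ly6c2-high cells in all 3 groups (ratios of 0.32 to 1.92) and Cebpb lower in all 3 (-1.13 to -0.49). Again 0 of the members compared passed in every group, against 1.68% of 7733 genes. Irf4 and Gata6 were under 20 CPM in both gates and not compared.

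The pooled Maf level was 589 CPM in WT sham, 437 in CD3e-/- sham, 463 in WT TAC, 387 in CD3e-/- TAC and 488.5 in CD8-depleted TAC, so WT sham was highest. The log2 ratio was -0.34 for WT TAC against WT sham and 0.01 with the class mix held fixed. By class that ratio was 0.56 in Ccr2-high, -0.38 in Ace-high, -0.24 in Lyve1-high and -0.15 in Ccr2-low Lyve1-low cells. The pooled and fixed-mix ratios were -0.42 and -0.15 for CD3e-/- sham against WT sham, and 0.08 and 0.12 for CD8-depleted TAC against WT TAC. For CD3e-/- TAC against WT TAC the ratio was -0.25 pooled, -0.15 over the 4 classes compared and -0.07 with their mix held fixed. Lyve1-high cells, where Maf was highest, made up 12.2% of the gated cells in WT sham (9.59 to 15.1) against 6.45%, 4.59%, 2.1% and 4.64% in the other groups. Of 12 genes listed as partners or targets of the MAF family, the complement gene C1qa averaged 4762 CPM in Lyve1-high and 612 in Ly6c2-high cells. The mannose receptor Mrc1 averaged 2737 and 150.4. These are means over the groups with 20 cells or more, 4 for Lyve1-high and 3, all TAC, for Ly6c2-high. Other listed genes, such as the hemoglobin scavenger receptor Cd163 (697 and 2.86 CPM), were at 20 CPM or more only in the Lyve1-high class, which sets their direction, so no count is given. Several of the listed genes are also markers of that class.

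**Figure D4:**
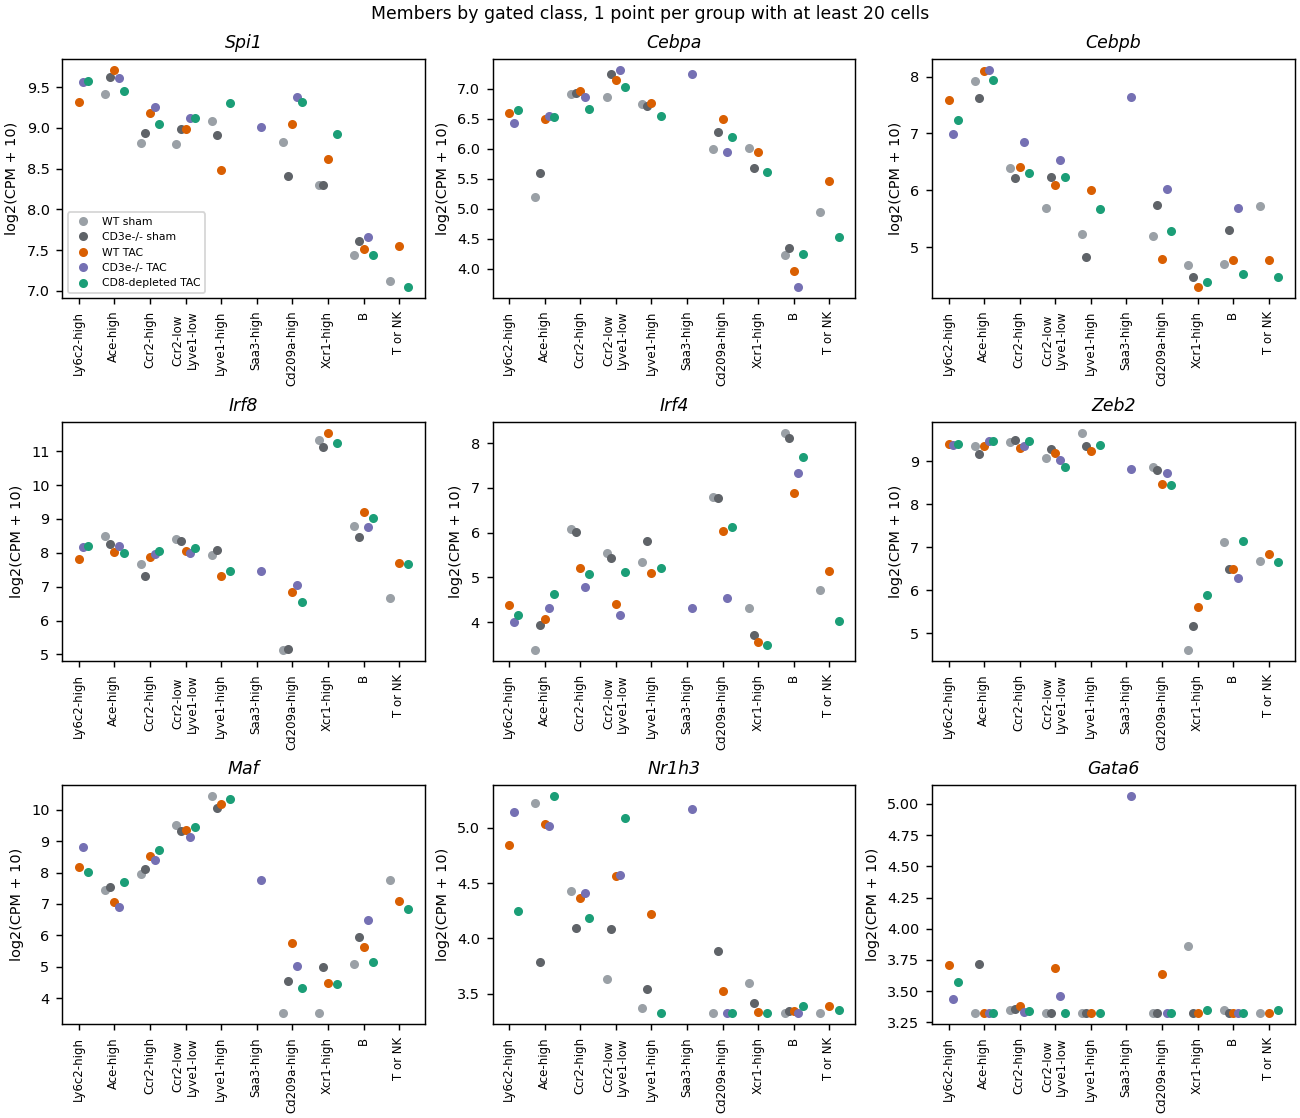
Level of each member in the 10 gated classes as log2(CPM + 10), 1 point per group with at least 20 cells of the class. Irf8 is highest in Xcr1-high cells and Maf in Lyve1-high cells, Zeb2 drops in Xcr1-high cells and lymphocytes, Cebpb is highest in Ace-high cells, and Gata6 is above 20 CPM only in Saa3-high cells of CD3e-/- TAC.

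Nr1h3 was read in few cells, and its pooled level was higher after TAC. It measured 6.55 CPM in WT sham, 6.11 in CD3e-/- sham, 13.1 in WT TAC, 17.0 in CD3e-/- TAC and 14.5 in CD8-depleted TAC. The thinned shares were 3.57% (2.09 to 5.66) and 4.21% (2.47 to 6.65) in the sham groups, 8.95% (7.26 to 10.9) in WT TAC, 8.03% (6.02 to 10.4) in CD3e-/- TAC and 8.09% (6.00 to 10.6) in CD8-depleted TAC. They were 0.662% in B and 0.709% in T or NK cells. The TAC shares were above both sham shares, with intervals that overlapped those of CD3e-/- sham for the latter 2. A single cell gave 22.5% of the reads in WT sham, and all groups were under the 20 CPM from which genes were compared. The log2 ratio of TAC to sham was 0.48 in WT and 0.74 in CD3e-/-, and 0.34 and 0.51 with the class mix held fixed. By class the WT ratio was 0.93 in Ccr2-low Lyve1-low and 0.85 in Lyve1-high cells. It was -0.18 in Ace-high and -0.06 in Ccr2-high cells. In CD3e-/- the ratio was positive in all 3 classes compared. The level was highest in Saa3-high (25.9), Ace-high (mean 21.1, from 3.85 to 29.1) and Ly6c2-high cells (17.7), with overlapping ranges, and under 3 CPM on average in Lyve1-high, dendritic and lymphoid classes. Of 11 listed LXR target genes 10 were measured and compared. In WT TAC against WT sham 8 of 10 were higher, and their median log2 ratio was 0.43 against 0.03 for all genes. Of the 10, 0 passed 2-fold, against 1.99% of all genes compared. In CD3e-/- TAC against CD3e-/- sham 8 of 10 were higher, with a median of 0.21 against 0.05. There 1 of the 10 passed, against 2.92% of all genes compared. Against WT TAC, 4 of the 10 were higher in CD3e-/- TAC and 2 of the 10 in CD8-depleted TAC. The medians there were -0.06 in both, against 0.001 and 0.006 for all genes, while Nr1h3 was higher in both groups than in WT TAC. The share of all genes that were higher was not counted, and a link between Nr1h3 and these genes was not tested. Apoe, the lipid carrier, measured 10565, 7611, 18151, 15714 and 13951 CPM in the 5 groups.

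Gata6 was nearly absent outside a small set of cells. Of the 5263 cells, 88 had a Gata6 read. In the pooled monocytes and macrophages it was read in 3, 2, 13, 17 and 11 cells of the 5 groups, at 0.0758, 0.346, 1.39, 2.45 and 1.23 CPM, with 26.2% or more of the reads from 1 cell in every group. In Saa3-high cells, of which there were 0, 0, 2, 24 and 6, it was read in 8 of 24 cells of CD3e-/- TAC (23.4 CPM) and 4 of 6 of CD8-depleted TAC (53.6 CPM), and in neither of the 2 cells of WT TAC. After thinning, 29.0% (14.2 to 48.0) of 31 Saa3-high cells had a read, against 0.331% in B cells and 0 of 141 T or NK cells, which allows a share of up to 2.13%. Only 1.00% of the other gated monocytes and macrophages had a read before thinning, with median reads per cell of 97089 against 258110 in Saa3-high cells. The Saa3-high class was over 20 cells in CD3e-/- TAC alone. There, against Ccr2-low Lyve1-low cells, Gata6 (1.60) and Cebpb (1.10) were past 2-fold higher on the log2 scale and Maf (-1.38) lower, so 3 of 9 members were past 2-fold, as were 10.6% of the 7253 genes compared. Gata6 reached 20 CPM only in the Saa3-high cells, so its direction was set by that limit. Irf4 was under 20 CPM in both classes and not compared. The count was 2 of 9 with the mean of single-cell CPM and with thinned cells.

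The Saa3-high cells with a Gata6 read also carried other genes of large cavity macrophages. Prg4, which encodes the lubricant proteoglycan 4, was read in 11 of 12 of them (median 2373 CPM) and in 7 of 20 Saa3-high cells without a Gata6 read (median 0), and Selp in 12 of 12 and 8 of 20. Alox15, an arachidonate lipoxygenase, was read in 9 of 12 and 3 of 20, and Icam2 in 10 of 12 and 8 of 20. Fcna differed less, with a read in 11 of 12 and 13 of 20 and medians of 631 and 210 CPM. The cells with a Gata6 read had more reads, 320661 at the median against 148564, and a higher Saa3 level, 10533 against 2421 CPM. The 14 listed cavity macrophage genes include the class markers, and most were at 20 CPM or more only in the class or groups where they were high, which sets their direction, so no count is given. Prg4 measured 1455 CPM in the Saa3-high cells of CD3e-/- TAC, the only group with 20 or more of them. Its mean over the groups was 3.76 CPM in Ccr2-low Lyve1-low cells. In the pooled monocytes and macrophages it was 1.48, 0.46, 1.79, 137.8 and 89.5 CPM in the 5 groups.

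**Figure D5:**
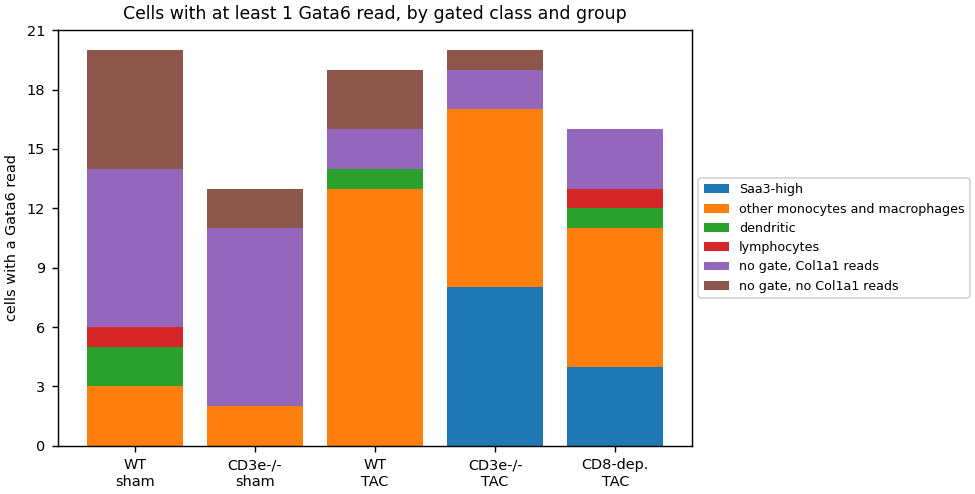
Number of cells with at least 1 Gata6 read in each group, divided by gated class; cells that passed no gate are split by Col1a1 reads. The Saa3-high cells with a read lie in CD3e-/- TAC (8) and CD8-depleted TAC (4), and cells with Col1a1 reads hold a read in all 5 groups.

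In the comparisons between genotypes and with the antibody, 0 of the members compared passed 2-fold. The 20 CPM limit left 6 of 9 to compare in CD3e-/- TAC against WT TAC and 7 of 9 in the others. Nr1h3 and Gata6 were under it in all of them, and Irf4 also in CD3e-/- TAC against WT TAC. The share of all genes past 2-fold was 0.59% of 6955 for CD3e-/- sham against WT sham, 0.609% of 6902 for CD3e-/- TAC against WT TAC and 0.275% of 6913 for CD8-depleted TAC against WT TAC. For CD3e-/- sham against WT sham Maf had the largest ratio among the compared members, -0.42, and Irf4 was level at 0.00. For CD8-depleted TAC against WT TAC the ratios lay between -0.19 (Cebpa) and 0.14 (Irf8). These comparisons share their WT groups with those of TAC against sham.

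Among the other 58 transcription factors listed, 7 of the 46 compared were past 2-fold in WT TAC against WT sham, 2 higher and 5 lower. In CD3e-/- TAC against CD3e-/- sham 8 of 47 were, 3 higher and 5 lower. The shares of all genes compared that passed were 1.99% and 2.92%. Irf7, the interferon-induced relative of Irf8 and Irf4, was higher in both, at 251 against 52.0 CPM in WT (log2 ratio 2.07) and 370.4 against 69.4 in CD3e-/- (2.26). Egr1 was lower in both, with ratios of -1.69 and -2.003. Only the 5 largest ratios past 2-fold were listed per comparison, and the genes below moved the same way in both genotypes. The Kruppel-like factors Klf2 (-1.61) and Klf4 (-1.55) were listed as lower in WT, and measured 283 against 496 and 405 against 855 CPM in CD3e-/-. Egr2 (-1.43) and Atf3 (-1.16) were listed as lower in CD3e-/-, and measured 25.7 against 63.2 and 390 against 810 CPM in WT. Hif1a (1.06) was listed as higher in WT, and measured 142 against 102 CPM in CD3e-/-. In the other 3 comparisons 0 of these factors passed, against 0.275% to 0.609% of all genes compared.

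Over the 40 class-by-group sums, the genes whose log2 level ran most like that of Irf8 were Snx22, Xcr1 and Gcsam (Pearson r of 0.79 each), for Irf4 Cd79b, Foxp1 and Blnk (0.82 to 0.79), and for Spi1 Pirb, Pld4 and Lrrc25 (0.93 to 0.92). Cebpa ran with App, P2ry6 and Sdc3 (0.95 to 0.93), Cebpb with Pygl and Klra2 (0.92), Zeb2 with Sirpa, Cybb and Gm49339 (0.95 to 0.94), and Maf with Aoah, C5ar1 and Itm2b (0.93 to 0.88). Nr1h3 and Gata6 stayed under 50 CPM in every sum and were left out of this search. Among the members themselves, where no such limit was set, Cebpb and Nr1h3 had the highest coefficient (0.85) and Irf8 and Zeb2 the lowest (-0.62). The coefficient of Cebpb and Nr1h3 rests on Nr1h3 levels of at most 29.1 CPM. The sums share 1 library and the 5 groups, and Xcr1 was a gate gene.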

How the data were processed

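The authors trimmed and mapped the reads (cutadapt 2.10, Bowtie2 2.4.2 and GRCm38 are named in the submitters' processing notes), cut barcodes at the inflection of the read curve, corrected errors with DBEC and assigned hashtags. The values they deposited are raw counts of reads per gene and cell, not of molecules, so reads of 1 molecule are not independent and the intervals are too narrow. They labelled 40 of 5363 columns (0.746%) as doublets. These and 8 columns without a hashtag were left out here, with cells under 500 genes or over 0.4 mitochondrial reads and genes in under 5 cells; no doublet caller was run. Groups came from deposited notes that name each hashtag, not from the labels of the 2 library samples. No barcode was in more than 1 column.

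From there, reads were summed per group or class with Python 3.11.15 tools (numpy, scipy, pandas) and divided into CPM. Log2 ratios had 10 CPM added, and a gene was compared at 20 CPM or more in either group and counted when past 2-fold; between classes, past 2-fold the same way in every group with 20 cells of both. The fixed class mix weights each class by the mean of its read shares in both groups. Poisson and Clopper-Pearson intervals are exact at 95%; a count of 0 allows 3 counts. Thinning drew 39057 reads per cell, the 10th percentile of the gated monocytes and macrophages, without replacement. The ratio and the gates were tested on simulated data. The named genes were the members, gate and listed genes, up to 5 other transcription factors per comparison with the largest ratio past 2-fold, and the 3 genes of highest r for each member among 7322 genes at 50 CPM or more in a sum. Members and lists were chosen with earlier results of these data known. Alternatives were gates at other limits or in reverse order, single-cell means, thinned cells, fewer or more cells, and 1 CPM added. A few genes that these rules name are not reported here.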

Additional observations from a re-analysis of the deposited data

Results flagged for a closer look

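Gata6 was also read in cells that passed no gate, which enter none of the comparisons. Their summed level was 15.09 CPM, against 0.0422 CPM in B and T or NK cells. Of the 39 such cells with Col1a1 reads, a collagen gene of fibroblasts, 24 had a Gata6 read (61.5%, interval 44.6 to 76.6), and they held 50.7% of all 1664 Gata6 reads. Of the 636 without Col1a1 reads, 12 had one.

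Irf8 was the only member whose pooled ratio of TAC to sham had opposite signs in the 2 genotypes. The log2 ratio was -0.25 in WT and 0.0327 in CD3e-/-, and the difference was not tested, since each group is 1 sample. Within the classes compared in both genotypes the signs were alike. In WT and CD3e-/- the ratio was 0.21 and 0.67 in Ccr2-high, -0.35 and -0.34 in Ccr2-low Lyve1-low, and -0.47 and -0.05 in Ace-high cells. In CD3e-/- the pooled ratio was -0.03 with gate limits doubled, -0.14 with the mean of single-cell CPM and -0.03 with thinned cells, so the opposite sign was lost under 3 of 7 alternatives.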

How the results depend on the processing

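No paired analysis was possible because each group is 1 sample, and for the same reason no replicate could be left out. The count of members past 2-fold changed by more than 1.5 times in 1 place: with 1 CPM added in place of 10, it was 1 in place of 0 for WT TAC against WT sham, since the Irf4 log2 ratio became -1.04. Of 315 ratios of a member under an alternative, 314 kept their call, which asks for 20 CPM in either group besides 2-fold, and 0 called ratios changed sign. With 1 CPM added, the ratios of Gata6 (1.36 in CD3e-/- and 1.15 in WT) and Nr1h3 (1.34 in CD3e-/-) for TAC against sham were also past 2-fold in size, below 20 CPM. The count for Saa3-high against Ccr2-low Lyve1-low cells was 2 in place of 3 with single-cell means and with thinned cells, and that for Lyve1-high against Ly6c2-high cells 3 in place of 2 under 5 alternatives. The Irf4 ratio ranged from -1.65 to -1.01 for CD3e-/- TAC against CD3e-/- sham and from -1.04 to -0.62 in WT. The share of Saa3-high cells with a Gata6 read ranged from 23.8% to 40.0%. With doubled limits or without the cells of most reads, and with reversed gates, Saa3-high cells were under 20 per group, and reversed gates also gave no value for the 2 comparisons with Ly6c2-high cells. Values of Gata6 and Nr1h3 rest on few cells.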
